A study of Mus musculus with 32 samples.

Results

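The Polycomb repressors and an H3K27 demethylase described here are 10 of the 37310 genes in the count table, taken by name: the PRC2 genes Ezh1, Ezh2, Eed, Suz12 and Jarid2, the PRC1 genes Bmi1, Rnf2, Cbx2 and Cbx7, and the demethylase gene Kdm6b. All 10 were found by Ensembl identifier, and all 10 passed the filter on low counts, with 65 to 269 reads per tumor for Cbx7, the lowest of them. RNA was sequenced from brain tumor biopsies of 6 GMYC and 8 GTML mice. GMYC mice carry Glt1-tTA and TRE-MYC, so that a transactivator expressed from the Glt1 promoter in the hindbrain turns on a MYC transgene unless doxycycline is given, and GTML mice express MYCN from the same promoter. Both models were kept on the FVB/N background. Each tumor came from a single biopsy, whose share of non-tumor cells was not measured, and the labels give no age or sex. No normal brain was compared, so each difference is between the 2 tumor models. The study's methods describe the GMYC libraries as made for it, and part of the GTML libraries as made earlier; which are which is not in the labels, so model and sequencing occasion cannot be told apart. The study also described a GTML tumor with an SHH-like profile, which the labels do not name. The study left that tumor out of its own test between the models. All 8 GTML tumors were kept here, so the set of samples differs from that of the study.

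Polycomb proteins keep genes silent through marks on histones. PRC2 places methyl groups on lysine 27 of histone H3 through its catalytic subunit, Ezh2 or Ezh1, which needs the core subunits Eed and Suz12 to work, and accessory subunits such as Jarid2 guide it to chromatin. PRC1 places ubiquitin on histone H2A through Rnf2 (Ring1b), which pairs with a PCGF subunit such as Bmi1, and its CBX subunits, among them Cbx2 and Cbx7, bind the mark made by PRC2. Kdm6b (Jmjd3) and Kdm6a (Utx) remove methyl groups from the same lysine. The Hox clusters and the Cdkn2a and Cdkn2b genes are classical targets of this repression, and Ezh2 is usually abundant in dividing cells whereas Ezh1 is found more in resting ones.

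Promoter windows of 300 bases, most of them before the start of transcription, were taken from RefSeq on GRCm38.p6 and were found for 8 of the 10 genes, all but Cbx2 and Kdm6b. They were searched on both strands for CACGTG, the E-box bound by MYC and MYCN, and for TTCCCGC, an E2F-like motif. Of all 32851 mouse promoter windows, 2349 (7.15%) held the E-box and 1511 (4.6%) held the E2F-like motif. Among the 8 genes the E-box occurred only in the window of Bmi1, 215 bases before the start, and the E2F-like motif only in that of Suz12, 218 bases before it. The 4 windows below are shown because they hold those matches or belong to Ezh1 and Eed, the PRC2 genes whose counts differed most firmly between the models; capitals mark the matched motif, and neither Ezh1 nor Eed has one. The windows lie at chr11:101226414-101226713 on the minus strand for Ezh1, chr7:89980927-89981226 on the minus strand for Eed, chr2:18676768-18677067 on the plus strand for Bmi1 and chr11:79992856-79993155 on the plus strand for Suz12.
Ezh1: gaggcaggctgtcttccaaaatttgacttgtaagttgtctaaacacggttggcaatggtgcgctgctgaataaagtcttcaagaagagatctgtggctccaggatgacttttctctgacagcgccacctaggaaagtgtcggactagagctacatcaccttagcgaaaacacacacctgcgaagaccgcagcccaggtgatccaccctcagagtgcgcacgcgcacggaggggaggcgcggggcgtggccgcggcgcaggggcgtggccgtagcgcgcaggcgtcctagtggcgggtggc
Eed: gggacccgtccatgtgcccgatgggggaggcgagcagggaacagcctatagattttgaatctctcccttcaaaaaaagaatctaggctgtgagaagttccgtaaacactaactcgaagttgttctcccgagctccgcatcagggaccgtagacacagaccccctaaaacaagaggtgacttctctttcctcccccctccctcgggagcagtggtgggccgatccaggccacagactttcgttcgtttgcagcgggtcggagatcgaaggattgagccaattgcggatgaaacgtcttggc
Bmi1: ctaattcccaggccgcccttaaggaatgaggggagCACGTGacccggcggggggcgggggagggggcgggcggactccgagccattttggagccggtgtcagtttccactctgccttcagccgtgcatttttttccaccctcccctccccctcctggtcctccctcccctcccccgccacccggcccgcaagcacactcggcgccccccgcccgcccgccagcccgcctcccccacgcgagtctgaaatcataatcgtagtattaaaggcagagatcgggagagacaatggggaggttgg
Suz12: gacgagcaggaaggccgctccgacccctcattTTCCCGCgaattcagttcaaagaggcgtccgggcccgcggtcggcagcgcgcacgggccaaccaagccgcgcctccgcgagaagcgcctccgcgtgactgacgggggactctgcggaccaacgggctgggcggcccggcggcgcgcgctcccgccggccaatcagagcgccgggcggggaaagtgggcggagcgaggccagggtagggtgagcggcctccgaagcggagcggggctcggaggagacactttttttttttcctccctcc
All of these windows are rich in CG dinucleotides. Suz12 had 41, Ezh1 and Bmi1 each had 23 and Eed had 17, against a median of 7 over all promoter windows. A match describes the sequence only, and binding was not measured.

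Counts totalled 4602294 to 7279811 per tumor, and GTML tumors (at most 6317404) were on the whole counted less deeply than GMYC tumors (at least 6218378). Otx2 and Crx, transcription factors of photoreceptors that Group 3 medulloblastoma also expresses, were high in both models. Otx2 had a mean of 316 ± 35.0 CPM (counts scaled to the depth of each tumor) in GMYC tumors (SD, n = 6) and 323 ± 48.6 CPM in GTML tumors (SD, n = 8), and Crx had 385 ± 27.3 and 326 ± 96.8 CPM. The photoreceptor genes Rcvrn, Pde6a and Gnat1 were called as higher in GTML tumors, 3 of the 6 listed (against 11.5% of all genes). Their GTML means were 10.1 ± 20.2, 34.5 ± 77.8 and 19.4 ± 41.2 CPM (SD, n = 8), each with an SD above the mean. The GMYC means were 0.347 ± 0.386, 1.44 ± 1.63 and 0.374 ± 0.588 CPM (SD, n = 6). The models overlapped for all 3, so these calls do not describe every GTML tumor. The driver genes followed the labels: Mycn was higher in GTML tumors by a log2 fold change of 2.79, and Myc, counted on the mouse gene, differed by -4.63. Some libraries stood apart. Small nucleolar RNAs took 0.366% or more of the counts in GMYC tumors 1 to 4 and GTML tumors 1 and 2, but 0.272% or less in the other 8 tumors. Leaving out GTML tumor 2 raised the number of genes that differed between the models from 4459 to 6430 (30.7% of those tested), the highest count reached by leaving out any single tumor. The Y-linked genes were present in all GMYC tumors but near absent in GTML tumors 2, 3, 5 and 8. Values without GTML tumor 2 and within each side of the small nucleolar RNA split are given beside the results they touch.

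The models differed in 3 of the 10 genes (30.0%) at an adjusted p under 0.05: Ezh1 and Jarid2 were higher in GTML tumors and Eed was higher in GMYC tumors. The same test called 4459 of 21024 genes (21.2%), 11.5% with the higher level in GTML tumors and 9.71% with the lower, so 3 of 10 is near the background. All 10 genes overlapped between the models, as did all but 4.62% of the genes tested (2.48% with every GMYC tumor on top). The median log2 fold change (GTML over GMYC here and below) was -0.10 over the 10 genes and 0.04 over all genes tested. An unadjusted p under 0.05 was common, found for 6 of the 10 and for 7938 of all 21024 genes tested. None of the 10 reached the larger change used in the study, an adjusted p under 0.01 with at least a doubling or halving, which 3.22% of all genes passed. In bulk tumor RNA, fewer cells expressing a gene and less of its RNA per cell cannot be told apart.

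**Figure D1:**
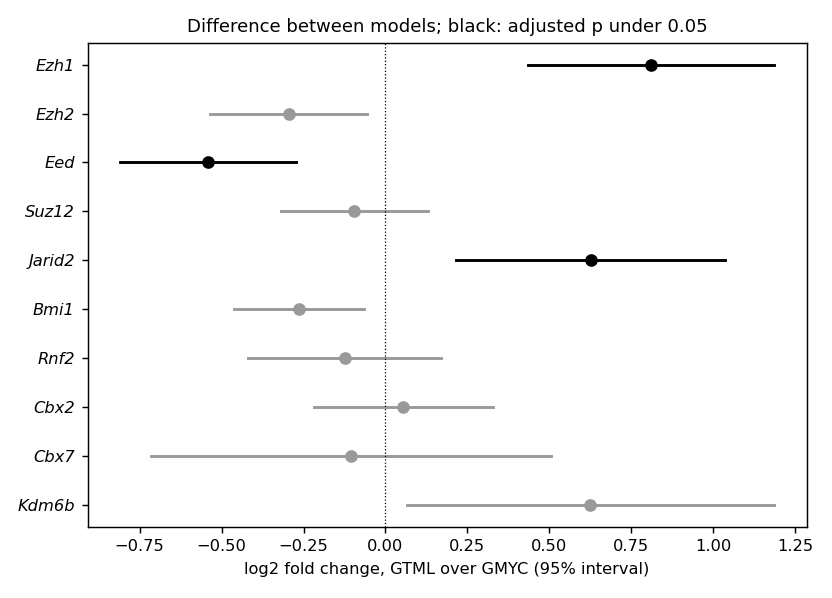
Log2 fold change (x axis, GTML over GMYC tumors) of each of the 10 genes, with bars for the 95% interval from edgeR and filled black points for an adjusted p under 0.05. Ezh1 (0.81) and Jarid2 (0.63) lie to the right of 0 and Eed (-0.54) to the left, while the intervals of Suz12, Rnf2, Cbx2 and Cbx7 include 0.

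Ezh1, the catalytic subunit found more in resting cells, showed the largest difference of the 10. It was counted at 39.5 to 67.7 CPM (median 51.0) in GMYC tumors and at 64.0 to 137 CPM (median 82.7) in GTML tumors. The only crossing of the models was between GMYC tumor 1, the highest of its model, and GTML tumor 1, the lowest of the other. The means were 51.7 ± 9.49 CPM (SD, n = 6) and 90.7 ± 24.7 (SD, n = 8), a 1.75-fold higher level in GTML tumors (log2 fold change 0.81, SE 0.177, 95% interval 0.43 to 1.19, edgeR adjusted p = 0.00838). Without GTML tumor 2 the log2 fold change was 0.85 (adjusted p = 0.00473), and the call held with any 1 tumor left out. On the sides of the library split, whose difference was not tested, it was 1.18 (adjusted p = 0.0236) among the 8 tumors low in small nucleolar RNA, where 13.3% of all genes were called, but 0.32 (adjusted p = 0.505) among the 6 high in it, where 2 of 18921 genes (0.0106%) were called.

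Ezh2, the catalytic subunit of dividing cells, moved the other way by a smaller amount that did not pass the test. Its level was 183 to 249 CPM (median 201) in GMYC tumors and 138 to 226 CPM (median 168) in GTML tumors. The models overlapped, with GTML tumor 7 above 4 of the 6 GMYC tumors. The log2 fold change was -0.30 (SE 0.113, 95% interval -0.53 to -0.06, adjusted p = 0.0709), and leaving out GTML tumor 7 gave -0.36 (adjusted p = 0.0379, against 0.0379 to 0.143 over all 14 such fits). Genes of cell division were read beside it: of 20 proliferation genes, 5 (25.0%, against 9.71% of all genes) were lower in GTML tumors at an adjusted p under 0.05 (Ccnb1, Plk1, Cdk1, Pcna and Aurkb, log2 fold changes -0.77 to -0.38) and none was higher, with summed levels of 3107 to 5211 CPM in GMYC and 3091 to 4351 CPM in GTML tumors. Mki67, the usual marker of cycling cells, had a mean of 730 ± 201 CPM in GMYC and 643 ± 135 CPM in GTML tumors (adjusted p = 0.448). The part of proliferation in the levels of the Polycomb genes was not tested.

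On the RPKM scale, which divides CPM by the length of a gene's exons so that genes can be compared, the balance of the catalytic subunits separated the models. The Ezh2 level was 3.33 to 7.02 times that of Ezh1 in GMYC tumors (median 4.45) and 1.38 to 2.70 times in GTML tumors (median 2.39). Every GMYC tumor was above every GTML tumor, and Ezh2 was the more abundant of the pair in all 14. Each gene alone overlapped between the models, and how often the ratio of other gene pairs separates them was not counted. Each side of the library split must then show the same gap, so its values are given only as a description. On the side high in small nucleolar RNA the ratio was 3.33 to 5.14 in GMYC and 2.46 to 2.50 in GTML, and on the low side 4.83 to 7.02 and 1.38 to 2.70. The ratio is a description with no test, since it combines the Ezh1 and Ezh2 values above.

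**Figure D2:**
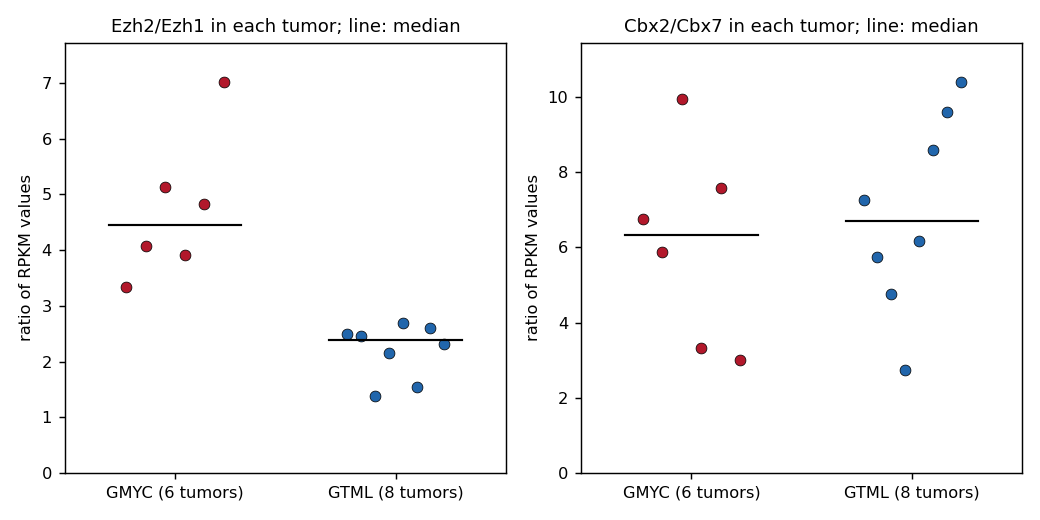
Ratio of RPKM levels (y axis) of Ezh2 to Ezh1 and of Cbx2 to Cbx7, 1 point per tumor in GMYC (n = 6) and GTML (n = 8), with a line at the median. For Ezh2/Ezh1 the lowest GMYC tumor (3.33) is above the highest GTML tumor (2.70), whereas the Cbx2/Cbx7 ratios cover nearly the same range in both models.

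Eed, the core subunit that binds methylated H3K27 and stimulates the enzyme, was the 1 gene of the 10 called as higher in GMYC tumors. It was counted at 70.4 to 91.5 CPM (median 87.3) in GMYC tumors and at 48.7 to 81.3 CPM (median 56.8) in GTML tumors. A single library made the overlap: GTML tumor 2 had 81.3 CPM, whereas the next GTML tumor had 58.4. The means were 83.4 ± 9.08 CPM (SD, n = 6) and 57.3 ± 10.6 CPM (SD, n = 8), with a log2 fold change of -0.54 (SE 0.127, 95% interval -0.81 to -0.27, adjusted p = 0.0109). Without GTML tumor 2 it was -0.63 (adjusted p = 0.00162) and the models no longer overlapped, as was seen in that direction for 4.25% of genes (8.67% in either direction) over the same tumors. Eed kept its call with any 1 tumor left out and among the 8 tumors low in small nucleolar RNA (-0.59, adjusted p = 0.0425), but not among the other 6 (-0.35, adjusted p = 0.556).

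Suz12, the other core subunit, was at nearly the same level in both models. It ranged from 150 to 203 CPM (median 170) in GMYC and from 140 to 196 CPM (median 161) in GTML tumors. The log2 fold change was -0.09 with a 95% interval of -0.32 to 0.13 (adjusted p = 0.535), which leaves room for a change of up to 0.32 in GMYC's favour. Eed and Suz12, which PRC2 uses together, thus gave different results, although the difference between them was not itself tested.

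Jarid2, an accessory subunit that brings PRC2 to its targets, was higher in GTML tumors with a wide spread. Its level was 112 to 194 CPM (median 141) in GMYC tumors and 125 to 324 CPM (median 230) in GTML tumors. GTML tumors 2 and 4 lay within the GMYC range, and the other 6 GTML tumors, from 216 CPM upward, were above all GMYC tumors. The means were 149 ± 30.4 and 230 ± 66.8 CPM, a 1.54-fold difference (log2 fold change 0.63, SE 0.194, 95% interval 0.22 to 1.04, adjusted p = 0.0326), and without GTML tumor 2 the value was 0.69 (adjusted p = 0.0139). The call rested on single tumors to a larger degree than those of Ezh1 and Eed: it was lost without GMYC tumor 1, 3, 4 or 5 or GTML tumor 3, 6 or 7, with log2 fold changes of 0.54 to 0.61 and adjusted p from 0.0503 to 0.0800. Within the library split it passed on neither side, with 0.45 (adjusted p = 0.446) among the tumors high in small nucleolar RNA and 0.53 (adjusted p = 0.235) among the others.

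**Figure D3:**
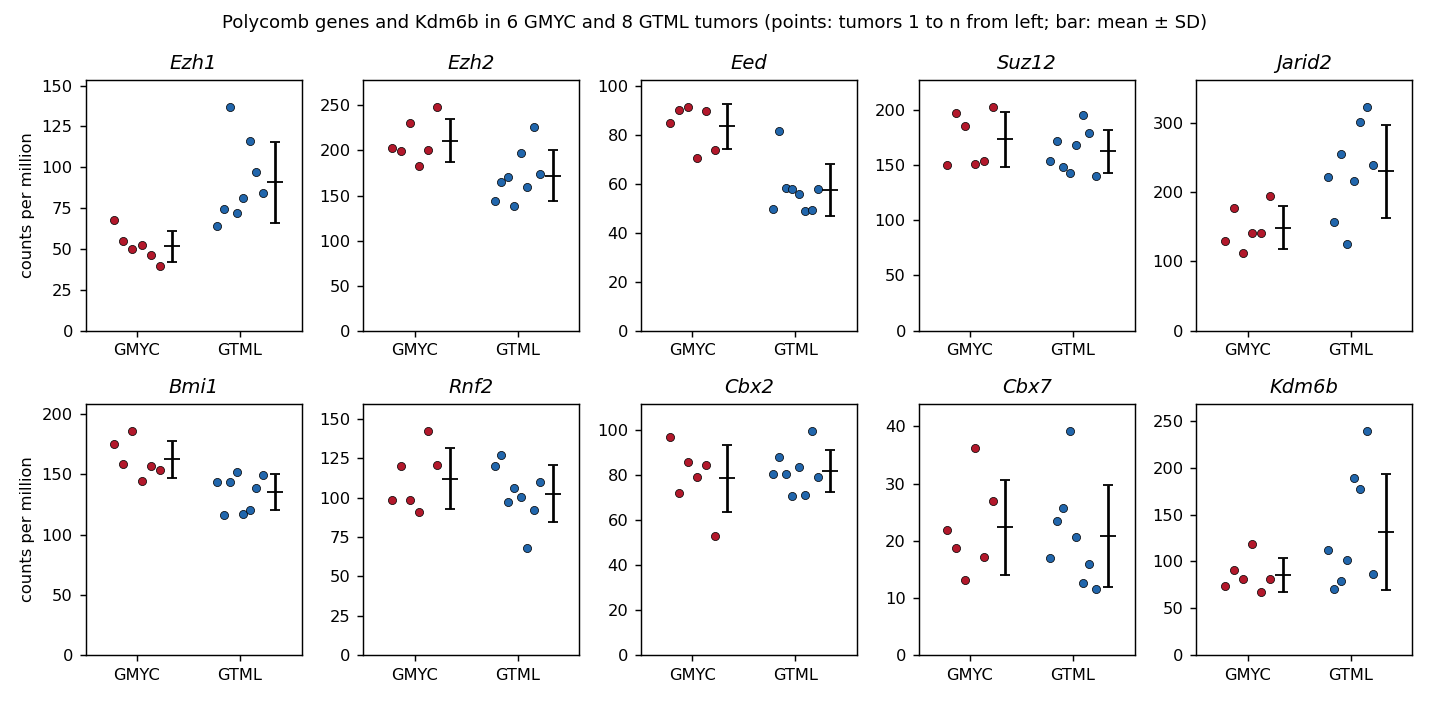
Level of each of the 10 genes (y axis, CPM) with 1 point per tumor for GMYC (n = 6) and GTML (n = 8), and the mean with bars of 1 SD. For Eed a single GTML tumor at 81.3 CPM lies among the GMYC tumors, and for Kdm6b 3 GTML tumors at 177 to 240 CPM lie above all the others.

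The PRC1 genes did not pass the test. Bmi1, the PCGF subunit of the classical complex and the gene with the E-box above, was the steadiest of the 10 within a model, at 144 to 186 CPM (median 158) in GMYC and 117 to 152 CPM (median 141) in GTML tumors. The log2 fold change of -0.26 (SE 0.0938, 95% interval -0.46 to -0.07) just missed the threshold (adjusted p = 0.0549), and it passed without GMYC tumor 4 (-0.30, adjusted p = 0.0470) or GTML tumor 4 (-0.29, adjusted p = 0.0460), while the 14 such fits gave an adjusted p of 0.0460 to 0.135. Rnf2, the ubiquitin ligase, had 90.7 to 142 CPM (median 110) in GMYC and 67.7 to 127 CPM (median 103) in GTML tumors, with GTML tumor 6 the lowest. Its log2 fold change was -0.12 (95% interval -0.42 to 0.17, adjusted p = 0.529), and it turned to 0.29 among the 6 tumors high in small nucleolar RNA.

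The CBX subunits, which read the PRC2 mark, did not separate the models either. Cbx2 had 53.0 to 96.9 CPM (median 82.1) in GMYC and 70.6 to 99.8 CPM (median 80.6) in GTML tumors, with a log2 fold change of 0.06 (95% interval -0.22 to 0.33, adjusted p = 0.778), which turned to -0.10 once a trend with gene length was removed. Cbx7 was the lowest of the 10 and varied most between GMYC tumors: it had 13.2 to 36.3 CPM (median 20.3) in GMYC and 11.6 to 39.2 CPM (median 18.8) in GTML tumors, so that tumors of the same model differed by 2.76 and 3.38 times. Its log2 fold change of -0.11 has a 95% interval of -0.72 to 0.50 (adjusted p = 0.811), the widest of the 10, and it turned to 0.09 without GMYC tumor 4. In RPKM, Cbx2 was 2.99 to 9.94 times Cbx7 in GMYC tumors (median 6.33) and 2.74 to 10.4 times in GTML tumors (median 6.71).

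Kdm6b, the demethylase that removes methyl groups from H3K27, varied among GTML tumors as widely as Cbx7, both by 3.38 times. In GMYC tumors it had 67.1 to 119 CPM (median 81.3). In GTML tumors it had 70.9 to 240 CPM (median 107), with 177 to 240 CPM in tumors 5, 6 and 7 and 70.9 to 112 CPM in the other 5, all of which lay within the GMYC range. The log2 fold change was 0.62 (SE 0.264, 95% interval 0.07 to 1.18), about the size of that of Jarid2 but with a larger error, and it missed the threshold (adjusted p = 0.0969). It passed without GTML tumor 2 (0.72, adjusted p = 0.0411, within a range of 0.0411 to 0.194 over the 14 such fits), whose level of 70.9 CPM was the lowest of its model. Tumors 5, 6 and 7 are all low in small nucleolar RNA, on which side the log2 fold change was 0.95 (adjusted p = 0.138), against 0.02 (adjusted p = 0.981) on the other.

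The order of the levels per exon length was alike in both models at its top and bottom. In GMYC tumors the median RPKM fell from Bmi1 (39.7), Suz12 (34.3) and Ezh2 (30.1) through Rnf2 (26.5), Eed (22.8) and Cbx2 (19.3) to Jarid2 (14.5), Kdm6b (11.7), Ezh1 (6.86) and Cbx7 (3.12). In GTML tumors it began with the same 4 genes, Bmi1 (35.5), Suz12 (32.5), Ezh2 (25.1) and Rnf2 (25.0), and ended with Ezh1 (11.1) and Cbx7 (2.90). Between them Jarid2 (23.7) moved up to the fifth place and Eed (14.8) moved down to the eighth, behind Cbx2 (18.9) and Kdm6b (15.4). Neighbours in these orders overlapped in their ranges over the tumors, except that Kdm6b lay above Ezh1 in all GMYC tumors (lowest 9.65 against highest 9.11 RPKM) and Ezh1 above Cbx7 in all GTML tumors (lowest 8.60 against highest 6.05 RPKM).

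The mouse genes Zfp612 and Oaz3 were closest to Ezh1 in their pattern over the 14 tumors, by the root mean square difference of log2 CPM standardized per gene (0.403 and 0.435, among 11364 protein-coding genes). For Eed they were Krr1 and Trip13, both at 0.264. For Jarid2 they were Slc22a15 (0.333) and Tmem136 (0.413). The value is 0 for identical patterns, and such a likeness is a description over 14 tumors.

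Other genes of the Polycomb pathway, from lists of PRC2 cofactors, PRC1 subunits, the other H3K27 demethylases and the PR-DUB complex, were called in 10 of 46 cases (21.7%), the same share as among all genes (21.2%). Of these 7 were higher in GTML and 3 were lower, and the median log2 fold change over the 46 was 0.13. Among 9 PRC2 cofactors, 1 was higher and 1 was lower. Phf1, a Polycomb-like cofactor that helps PRC2 bind chromatin, rose from 20.4 ± 5.57 CPM in GMYC tumors (SD, n = 6) to 38.1 ± 8.51 in GTML tumors (SD, n = 8), a log2 fold change of 0.90 (SE 0.202, adjusted p = 0.00940). Its relative Mtf2 went the other way, from 177 ± 21.8 to 143 ± 11.6 CPM (-0.30, SE 0.0916, adjusted p = 0.0308), a call lost without GMYC tumor 1, 5 or 6 or GTML tumor 7 (-0.30 to -0.23, adjusted p from 0.0566 to 0.0652).

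Among 25 PRC1 subunits, 5 were higher in GTML tumors and 2 were lower. Phc1 and Phc3, polyhomeotic subunits whose SAM domains join complexes together, were both higher: Phc1 was at 80.9 ± 20.9 CPM in GMYC and 155 ± 39.2 in GTML tumors (log2 fold change 0.93, SE 0.199, adjusted p = 0.00757), and Phc3 at 88.1 ± 30.2 and 151 ± 20.3 (0.77, SE 0.185, adjusted p = 0.0117). Scmh1 (0.87, SE 0.236, adjusted p = 0.0197) and Scml2 (1.19, SE 0.345, adjusted p = 0.0255), which share the same kind of domain, were higher as well, although both calls were lost without GMYC tumor 3 (0.78, adjusted p = 0.0507, and 1.14, adjusted p = 0.0586). The polyhomeotic gene Phc2 did not share the difference, at 86.1 ± 9.30 CPM in GMYC and 87.2 ± 29.7 in GTML tumors (0.02, adjusted p = 0.955). For Scml2 the lowest GTML tumor exceeded the highest GMYC tumor, a pattern seen for 2.14% of all genes, and without GTML tumor 2 the same held for Phc1 and Scmh1 (4.42% of all genes). Bcorl1 (0.91, adjusted p = 0.0420) was higher and Pcgf1 (-0.59, adjusted p = 0.0440) and E2f6 (-0.43, adjusted p = 0.0446), 2 subunits of variant PRC1 complexes, were lower, but these held with only 5, 3 and 3 of the 14 tumors left out in turn, as did Asxl2 (0.31, adjusted p = 0.0485), a PR-DUB subunit and the 1 of 10 called in that list, with 3. Among the 6 tumors high in small nucleolar RNA, none of the 46 was called.

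**Figure D4:**
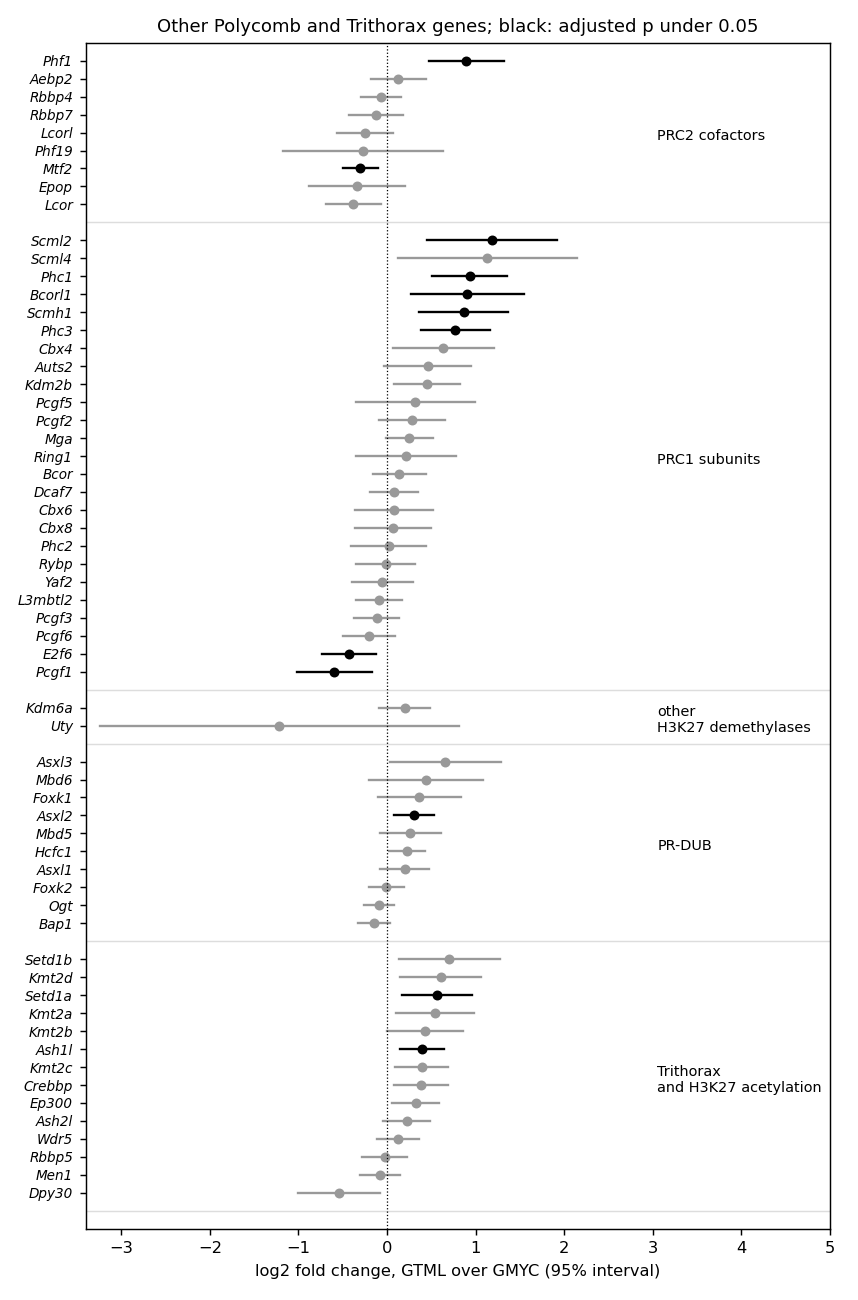
Log2 fold change (x axis, GTML over GMYC tumors) of the other Polycomb genes and of the Trithorax genes, grouped by list, with bars for the 95% interval and filled black points for an adjusted p under 0.05. The called genes Phc1, Phc3, Scmh1, Scml2, Bcorl1 and Phf1 lie between 0.77 and 1.19. The intervals of most other Polycomb genes include 0, whereas 10 of the 14 Trithorax genes had an unadjusted p under 0.05.

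Kdm6a, the other active H3K27 demethylase and an X-linked gene, had a mean of 112 ± 12.5 CPM in GMYC and 129 ± 27.7 CPM in GTML tumors (log2 fold change 0.20, adjusted p = 0.299). Within GTML its level went with that of the Y-linked genes. The 4 tumors in which those were near absent had 139 to 173 CPM, and the 4 in which they were present had 92.4 to 116 CPM. Uty, the Y-linked relative of Kdm6a, accordingly ranged from 0.153 to 129 CPM in GTML and from 93.2 to 133 CPM in GMYC tumors, and its call depended on the method: it was not called by edgeR (-1.21, adjusted p = 0.363) or DESeq2 (-1.18, adjusted p = 0.446) but was by limma-voom (-4.12, adjusted p = 0.0138). With a covariate for the Y-linked genes the Kdm6a value turned to -0.11, Ezh1 (0.76, adjusted p = 0.0456) and Eed (-0.70, adjusted p = 0.0194) kept their calls and Jarid2 (0.73, adjusted p = 0.0654) did not.

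Trithorax and H3K27 acetyltransferase genes, which oppose Polycomb, were higher in GTML tumors in 2 of 14 cases (14.3%, against 11.5% of all genes) and lower in none. The count was unstable, since DESeq2 called 7, limma-voom called 3, and the fits that left out 1 tumor called 0 to 9. An unadjusted p under 0.05 was found for 10 of the 14, against 7938 of all 21024 genes tested. Among these 10, Dpy30 was lower in GTML tumors (log2 fold change -0.54, edgeR adjusted p = 0.0841). Ash1l, a histone methyltransferase, had a log2 fold change of 0.40 (SE 0.117, adjusted p = 0.0261), and Setd1a, which methylates H3K4, one of 0.56 (SE 0.186, adjusted p = 0.0419). Ash1l was lost without GMYC tumor 3 or 5 (0.39, adjusted p = 0.0556, and 0.34, adjusted p = 0.0620), and Setd1a was lost in 7 of the 14 fits that left out 1 tumor. The median of the 14 was 0.39, and with the trend with exon length removed none was called. Longer genes ran higher in GTML tumors in general, with medians of -0.04, 0.01, 0.07 and 0.14 over 4 classes of equal size from the shortest to the longest protein-coding genes, and the part of length in the Trithorax values was not tested further.

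Targets of Polycomb repression were read from the same counts. Of 39 Hox genes listed, 38 were in the table and 3 passed the filter, and counts summed over the 38 were 8 to 129 reads in GMYC tumors and 46 to 431 in GTML tumors. Hoxc4 reached 31.2 CPM in GTML tumor 1 and 26.4 CPM in GTML tumor 4, against at most 10.2 CPM in a GMYC tumor, and Hoxc9 reached 13.9 CPM in GTML tumor 1, but neither was called (adjusted p = 0.174 and 0.163). Hoxc5 was called (log2 fold change 3.06, SE 0.928, adjusted p = 0.0302) at 0 to 1.29 CPM in GMYC and 0.306 to 14.6 CPM in GTML tumors, with the models overlapping. This call was lost without GMYC tumor 3, 4 or 5 or GTML tumor 3 (2.80 to 2.88, adjusted p from 0.0501 to 0.0643), and limma-voom did not make it (2.53, adjusted p = 0.110). Cdkn2a, which encodes p16 and p19Arf, was at 2.62 ± 3.11 CPM in GMYC tumors and 38.2 ± 12.9 in GTML tumors (3.87, adjusted p = 0.00172), and Cdkn2b, which encodes p15, at 1.39 ± 0.700 and 18.5 ± 4.45 (3.71, adjusted p = 4.7e-05). The counts used here cover the whole gene, so they do not tell p16 and p19Arf apart. The study read the transcripts separately. It reported almost no reads of either in GMYC tumors and reads that seemed to come mainly from the Arf transcript in GTML tumors. Whether the histone mark differed at these genes was not measured.

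Markers of other cells of the brain moved with the models in part. Of 6 genes each for astrocytes and microglia, none was called. All 6 astrocyte genes had a negative value (list median -0.79), whereas 3 of the 6 microglia genes had a positive one (list median -0.06). Mog was the 1 oligodendrocyte gene called of 6 and Kdr the 1 endothelial gene of 6, both higher in GTML tumors. Neither stood for its list: 3 of the 6 oligodendrocyte genes had a negative value (Mbp -0.52, Mag -0.30 and Cnp -0.28, list median -0.13), and Cldn5 in endothelium had -0.67 (list median 0.34). In blood, 4 of 5 genes (80.0%, against 9.71% of all genes) were lower (the globins, log2 fold changes -2.55 to -1.78). Hba-a1 and Hba-a2 were higher in every GMYC tumor than in any GTML tumor, a pattern seen for 2.48% of all genes. Alas2 went the other way, with means of 35.5 CPM in GMYC and 50.8 CPM in GTML tumors (0.51, edgeR adjusted p = 0.276). Summed levels overlapped for each of these lists, from 700 to 1205 CPM in GMYC against 387 to 878 in GTML tumors for astrocytes, from 102 to 192 against 65.5 to 264 for microglia, from 154 to 345 against 157 to 366 for oligodendrocytes, from 63.5 to 167 against 114 to 261 for endothelium and from 53.4 to 176 against 41.6 to 134 for blood. None of 5 tested cerebellar neuron genes or of 4 tested choroid plexus genes was called (126.6 to 307 against 76.1 to 220 CPM, and 7.60 to 47.4 against 10.2 to 39.3 CPM). Only 1 of the 5 cerebellar neuron genes had a positive value (list median -0.52), and 2 of the 4 choroid plexus genes did (list median -0.05). No marker gene was at 0 in every tumor, and the part of these cells in the Polycomb results was not tested. A further limit is that 6 of the 10 genes share exon sequence with a gene on the opposite strand (Ezh2, Eed, Suz12, Rnf2, Cbx7 and Kdm6b, over 1.54% to 6.82% of their exon bases on GRCm38), whose reads cannot be told apart because the strand setting of the counting is not given in the sources used here.

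**Figure D5:**
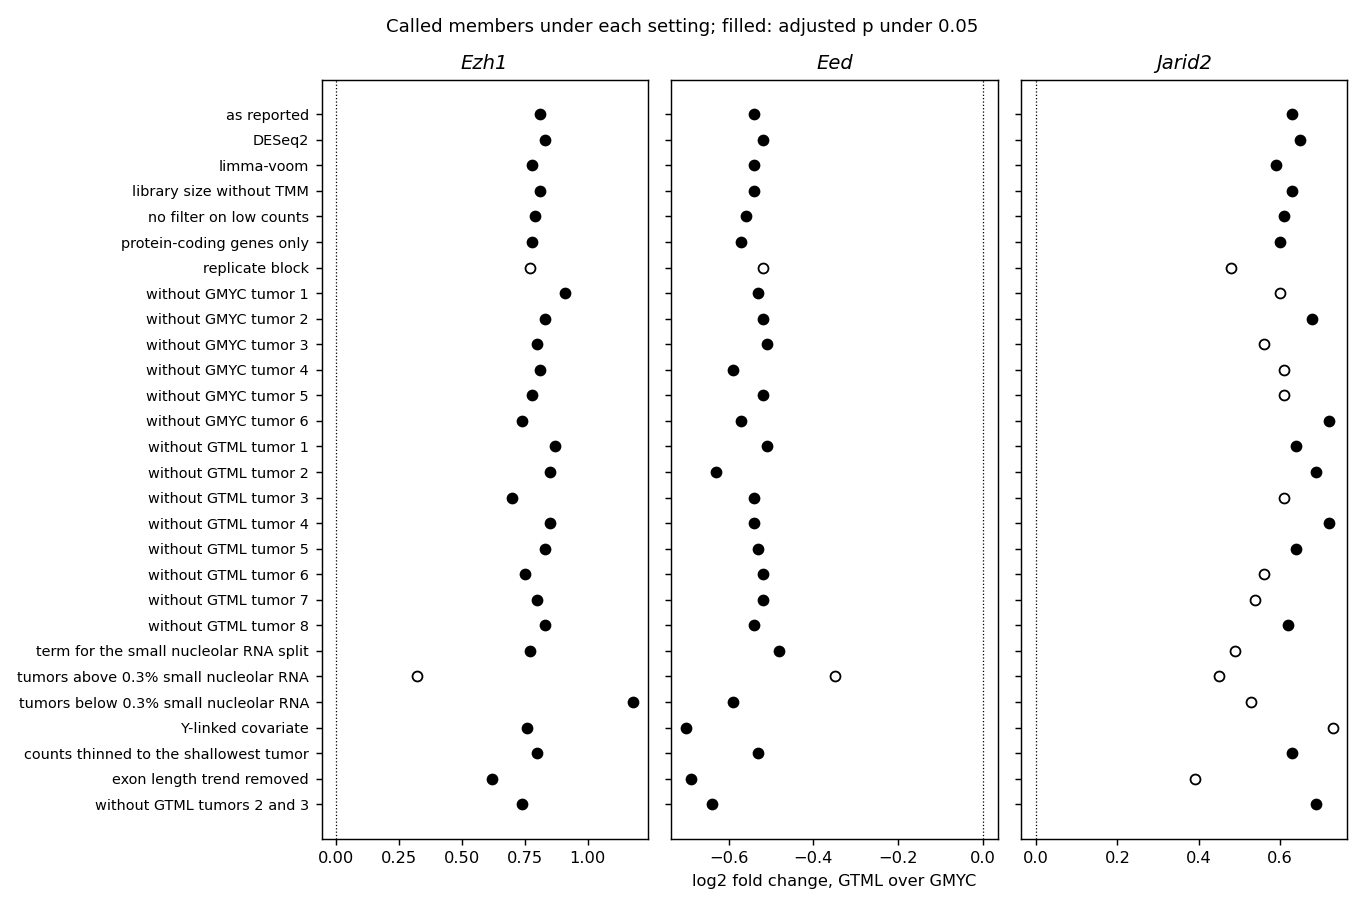
Log2 fold change (x axis, GTML over GMYC tumors) of Ezh1, Eed and Jarid2 under each way of processing the counts, with filled points for an adjusted p under 0.05. Ezh1 and Jarid2 stay to the right of 0 and Eed to the left under all settings, and all 3 are open among the tumors above 0.3% small nucleolar RNA and with a replicate block.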

How the data were processed

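RNA from brain tumor biopsies of 6 GMYC and 8 GTML mice was analysed. The authors sequenced the GMYC tumors at the Uppsala Genome Center, took part of the GTML reads from earlier work, aligned all to mouse mm9 with STAR and then Bowtie, and assigned them to GENCODE genes by featureCounts. The submitters' processing notes list STAR 2.4.0, Bowtie2 2.2 and Subread 1.5.2. The authors deposited whole-number counts of 37310 genes without normalization. How strand and duplicate reads were handled is not given in the sources used here. Counts in a further 18 columns could not be matched to labelled samples and were left out.

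Symbols and exon lengths came from the GENCODE annotation of GRCm38, matched by Ensembl identifier for 32620 genes (87.4%), and the counts themselves have no coordinates here. The test was edgeR's quasi-likelihood test (version 4.0.16, R 4.3.3) after TMM normalization, with Benjamini-Hochberg adjustment over the 21024 genes that exceeded a CPM of 1 in 3 or more tumors, and genes with an adjusted p under 0.05 were called. The study used limma-voom, which is among the alternatives here (limma 3.58.1), with DESeq2 1.42.0. Standard errors are the absolute log2 fold change over the square root of F. CPM (counts scaled to a common depth) use the TMM-scaled totals, and RPKM are CPM per kilobase of exon. Total counts ranged from 4602294 to 7279811, and precision is set by each gene's own reads. Nothing in the labels says whether the tumors of a model came from unrelated litters, so p-values measure the spread between these samples; within a model every pair differed by more than sampling noise (lowest chi-square per degree of freedom 5.67). Simulated counts of 20601 genes were also made for this comparison. In them edgeR called 34 of 99 genes changed by 1 on the log2 scale and 80 of 99 changed by 2. It called 6 of 20403 unchanged genes. A change of 1 was thus often missed there. Far fewer genes were changed in the simulation than were called in the data, which makes the adjustment stricter. These shares therefore do not carry over directly to the 10 genes.

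The 10 genes, the lists and the tests were chosen with earlier results of these data known. The text names all 10, Kdm6a and Uty, the genes called in each other list (at most 6 by p), the Cdkn2 genes, Myc and Mycn and, for each of the 10 that was called, the 2 genes most like it. Otx2, Crx, Mki67, Phc2, E2f6, Dpy30, Hoxc4, Hoxc9, Mbp, Mag, Cnp, Cldn5 and Alas2 fall outside this rule and were named after their values were seen. Alternatives were DESeq2, limma-voom, no TMM, no filter, protein-coding genes only, the replicate number as a block, each tumor left out, a term for or a split at 0.3% small nucleolar RNA, a Y-linked covariate, counts thinned to 4602294 and the thresholds of the study. Removing the trend with exon length and leaving out GTML tumors 2 and 3 were added after seeing the data. Promoter sequences are RefSeq's. Plots used matplotlib 3.10.9 (Python 3.11.15).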

Additional observations from a re-analysis of the deposited data

Results flagged for a closer look

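In 5 of 56 groups of tumors examined, for the 10 genes and the other named genes, the highest or lowest tumor lay farther from its nearest neighbour, relative to the range of its model, than Dixon's 95% limit. Chance gives about 1 in 20, or 2.8 of 56. Among the 10 genes this was Eed in GTML tumor 2, which had 81.3 CPM against 58.4 in the next tumor (gap over range 0.702). Mtf2 in GTML tumor 1 was low at 118 CPM, next to 141 (0.645). Kdm6a in GMYC tumor 6 was high at 136 CPM, next to 114 (0.682). Cdkn2a in GMYC tumor 3 was high at 8.72 CPM, next to 2.41 (0.735), though still low beside the GTML mean of 38.2 CPM. Myc in GMYC tumor 6 was low at 33.4 CPM, next to 134 (0.763), counted on the mouse gene.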

How the results depend on the processing

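Ezh1 and Eed kept direction and call under DESeq2, limma-voom, no TMM, no filter, thinned counts, protein-coding genes only, the small nucleolar RNA term, the Y-linked covariate and removal of the length trend. Jarid2 lost its call with that term (0.49), the covariate (0.73) and the length trend removed (0.39), which shifted the median of all genes by -0.13 (from 0.04 to -0.09) and gave 1836 genes higher and 2765 lower in GTML against 2418 and 2041. That removal also brought in Ezh2 (-0.49) and Bmi1 (-0.43) and turned Cbx2 to -0.10 and Kdm6a to -0.01. Protein-coding genes only brought in Bmi1 (-0.29), and leaving out GTML tumors 2 and 3 brought in Kdm6b (0.83, adjusted p = 0.0202). The covariate turned Kdm6a to -0.11 and Uty to 0.17. Above 0.3% small nucleolar RNA, 0 of the 10, 0 other Polycomb genes and 2 of all genes were called in fewer tumors, with Ezh1 at 0.32, Eed at -0.35, Jarid2 at 0.45 and Rnf2 turned to 0.29. Below it, Jarid2 (0.53) was lost, and 5 other Polycomb genes and 2662 of all genes were called. Other Polycomb genes called were 10 as reported, 6 without a filter and 3 with the covariate, and all genes called were 2851 with the term and 1691 with the covariate. The thresholds of the study left 0 of the 10 and 676 of all genes. An unadjusted p under 0.05 was found for 6 of the 10, against 7938 of all 21024 genes tested. Where no cause is named, the cause was not tested.

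Tumors of the same number did not deviate together (correlations -0.21 to 0.24 over 6 numbers, and 1 of 6 GMYC tumors correlated best with its own number), so the numbers do not pair them. With a replicate block, 0 of the 10, 0 other Polycomb genes and 251 of all genes were called, with Ezh1 at 0.77, Eed at -0.52, Jarid2 at 0.48 and Cbx7 turned to 0.04.

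Over the 14 fits that left out 1 tumor, log2 fold changes ranged from 0.70 to 0.91 for Ezh1, -0.36 to -0.24 for Ezh2, -0.63 to -0.51 for Eed, -0.14 to -0.04 for Suz12, 0.54 to 0.72 for Jarid2, -0.30 to -0.22 for Bmi1, -0.18 to -0.04 for Rnf2, -0.04 to 0.13 for Cbx2, -0.30 to 0.09 for Cbx7 and 0.46 to 0.74 for Kdm6b. The 10 genes gave 2 to 4 calls, the other Polycomb genes 4 to 10 and all genes 2617 (without GMYC tumor 3) to 6430 (without GTML tumor 2). Depth limits Cbx7 most, at 65 to 269 reads per tumor.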
